A study of Lactuca sativa var. capitata with 10 samples.

Results

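Peroxidase 12 (LSAT_6X101780) and a pair of genes for Peroxidase 11 (LSAT_3X105460 and LSAT_8X37660) were followed in lettuce roots after chitin was mixed into the soil. The members were taken by locus tag, as 3 of the 38293 genes in the table of counts. They had been picked because the study listed them as lower expressed in chitin-treated roots, so that their difference between the treatments is described here without a test. The chitin-treated group (PS+CH) consisted of 5 pools of wild-type plants of the butterhead cultivar 'Alexandria', grown in peat-based potting soil with 2 g chitin per L. The control group (PS) consisted of 5 pools of the same cultivar grown in this potting soil alone. Each pool held the roots of 5 plants, all roots were collected at 72 hours post-transplanting (hpt), and the greenhouse climate followed the weather. Pools average their plants, and in such bulk RNA fewer cells of a type and less RNA per cell cannot be told apart.

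Class III peroxidases are secreted enzymes with a heme group. They use hydrogen peroxide to oxidize phenolic compounds in the cell wall, and they join monolignols, the alcohols made by the phenylpropanoid pathway, into lignin. Plants carry many such genes, and in roots the family is known for wall stiffening, for lignified and suberized barriers and for the turnover of reactive oxygen species. The flavonoid pathway draws on the same phenylpropanoid precursors as lignin. Which substrate each of the 3 enzymes prefers in lettuce is not given in the sources used here, and close relatives within the family can share reads, since the treatment of reads with several matches is not stated.

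For Peroxidase 12 and the Peroxidase 11 gene LSAT_8X37660, the study designed RT-qPCR primers. They are shown because they are the only sequences in the sources used here that belong to these transcripts, and the capitals mark the 5 bases at the 3′ end from which extension starts. No primers were found there for LSAT_3X105460, and qPCR values were not analysed here. The study discarded most of its qPCR targets for low signal and found no difference between samples for the others. Its text does not say whether the peroxidases were among those kept.
Peroxidase 12 forward: cggtaaaccttgtccaGATGA
Peroxidase 12 reverse: atggattcaagctgcGGACA
Peroxidase 11 (LSAT_8X37660) forward: agattgcacagcacaCTCCA
Peroxidase 11 (LSAT_8X37660) reverse: tagcctcagtcgcaaCCATT

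The 10 libraries held between 17624520 and 18545790 counted reads. Counts were scaled by TMM factors and are given as CPM, counts scaled to a common library size, where 3 counts amounted to 0.157 to 0.173 CPM. PS replicate 3 stood apart, with the highest CPM of all pools for 24.7% of the 21936 genes tested and the lowest for 25.4%. The next highest shares were 13.0% for the highest and 15.3% for the lowest CPM. The summed level of 7 photosynthesis genes, taken as a sign of green tissue though the study picked them on these samples, ranged from 2.90 to 49.5 CPM in PS+CH pools and from 2.29 to 12.7 CPM in PS pools. All 7 had counts in every pool except PS replicates 1 and 5, where 6 of the 7 had. The gene for aquaporin TIP1-1 (LSAT_6X43221), a water channel of the vacuole, had 11.5 ± 1.74 CPM in PS+CH and 6.17 ± 2.38 CPM in PS (SD, n = 5 each). The locus tags could not be paired with names of root marker genes, so that the root label was not checked further.

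Peroxidase 12 (LSAT_6X101780) was a highly expressed gene of the root, and its level in chitin-treated roots was 33.3% of the control level. PS+CH pools 1 to 5 had 1931, 1411, 2541, 2143 and 2172 counts, which is 110, 78.6, 147, 122 and 123 CPM. PS pools 1 to 5 had 5592, 4532, 10812, 6260 and 5086 counts, which is 311, 246, 567, 340 and 277 CPM. PS replicate 3 was the highest and PS+CH replicate 2 the lowest of the 10 pools, and the treatments did not overlap. The lowest PS pool was 1.68 times the highest PS+CH pool. The mean was 116 ± 24.7 CPM in PS+CH and 348 ± 127 CPM in PS (SD, n = 5 each). This is a log2-fold change of -1.59 (standard error 0.23).

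LSAT_3X105460, the Peroxidase 11 gene with the fewest reads, had a level in PS+CH of 25.5% of that in PS. PS+CH pools 1 to 5 gave 38, 17, 36, 35 and 42 counts, which is 2.17, 0.947, 2.08, 1.99 and 2.38 CPM. PS pools 1 to 5 gave 85, 113, 212, 162 and 123 counts, which is 4.73, 6.13, 11.1, 8.79 and 6.69 CPM. Every PS+CH pool was again below every PS pool, PS+CH replicate 2 lay apart from the 4 other chitin pools, and PS replicate 3 was highest. The log2-fold change was -1.97 (standard error 0.27).

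The other Peroxidase 11 gene, LSAT_8X37660, had 25.8% of its PS level in PS+CH. PS+CH pools 1 to 5 gave 55, 39, 73, 84 and 80 counts, which is 3.14, 2.17, 4.21, 4.78 and 4.53 CPM. PS pools 1 to 5 had 196, 224, 392, 277 and 265 counts, which is 10.9, 12.1, 20.6, 15.0 and 14.4 CPM. The lowest PS pool was 2.28 times the highest PS+CH pool, the widest gap among the 3 genes. The log2-fold change was -1.96 (standard error 0.23).

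**Figure D1:**
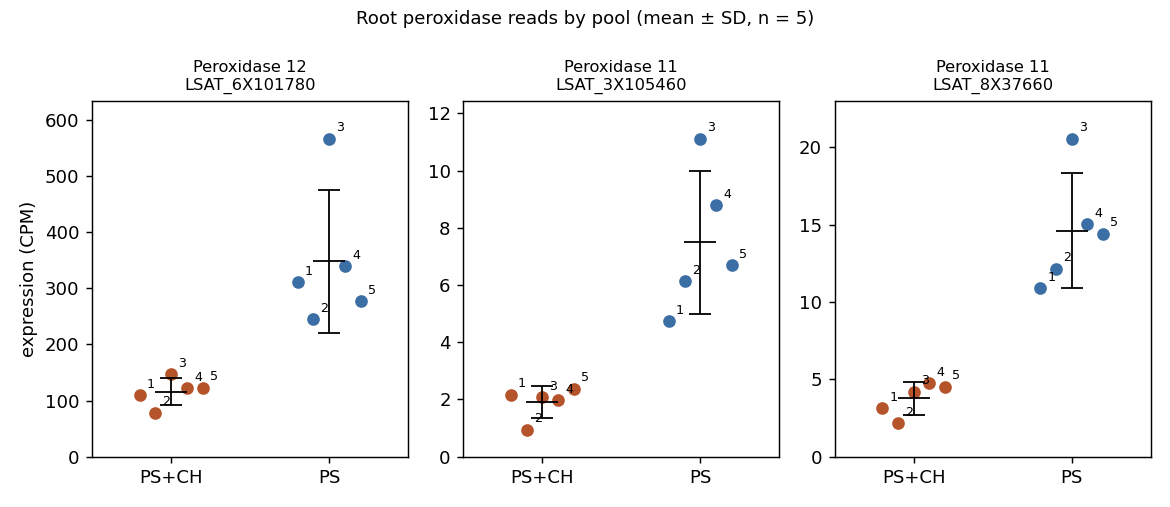
Expression in CPM (linear axis from 0) of the 3 peroxidase genes in each of the 5 PS+CH pools and 5 PS pools, with points numbered by replicate and bars for mean ± SD. No PS+CH pool reaches a PS pool in any panel, PS replicate 3 is the highest point and PS+CH replicate 2 the lowest.

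All 3 genes were among the differentially expressed genes (DEGs) of the fit over all genes, taken as an adjusted p-value under 0.05 with a log2-fold change of at most -1. In this fit 2.93% of the 21936 genes tested were lower expressed DEGs, 3.32% were DEGs in either direction, and every PS+CH pool was below every PS pool for 7.02% and above every PS pool for 7.04%. Since the genes were chosen on this difference, nothing is read from their number. Ordered from the most negative log2-fold change, they stood at places 37 (LSAT_3X105460), 39 (LSAT_8X37660) and 172 (Peroxidase 12) of the 21936 genes.

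The differences were smaller when either of the extreme pools was left out. PS replicate 3 had 1.93 times the mean of the other PS pools for Peroxidase 12, 1.69 times for LSAT_3X105460 and 1.57 times for LSAT_8X37660. PS+CH replicate 2 had 0.627, 0.440 and 0.522 times the mean of the other PS+CH pools for the same genes in this order. It was also the pool with the highest sums of the photosynthesis genes (49.5 CPM) and of 5 flavonoid pathway genes (111 CPM), and the part of these in the peroxidase levels was not tested. Without PS replicate 3, the log2-fold changes were -1.35 for Peroxidase 12, -1.80 for LSAT_3X105460 and -1.82 for LSAT_8X37660. Without PS+CH replicate 2, they were -1.47, -1.80 and -1.81. With both pools left out, mean CPM in PS+CH over that in PS gave log2 ratios of -1.23, -1.61 and -1.66.

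The abundance rank orders genes by mean CPM and is not corrected for transcript length, so that it compares numbers of reads and not of molecules. Among the 28458 genes with at least 1 count, Peroxidase 12 ranked 1803 in PS+CH and 344 in PS. Its rank in single pools ran from 1338 to 2784 in PS+CH and from 132 to 599 in PS, without overlap. In PS, 98.8% of these genes had fewer reads than Peroxidase 12, which took 0.0361% of all counted reads, against 0.0112% in PS+CH. The Peroxidase 11 genes stood in the middle and lower part of the range. LSAT_8X37660 ranked 16913 in PS+CH and 11252 in PS, and LSAT_3X105460 ranked 18950 in PS+CH and 14646 in PS. In PS+CH, 40.6% and 33.4% of genes had fewer reads than these. All pools of both Peroxidase 11 genes lay above the level of 3 counts.

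**Figure D2:**
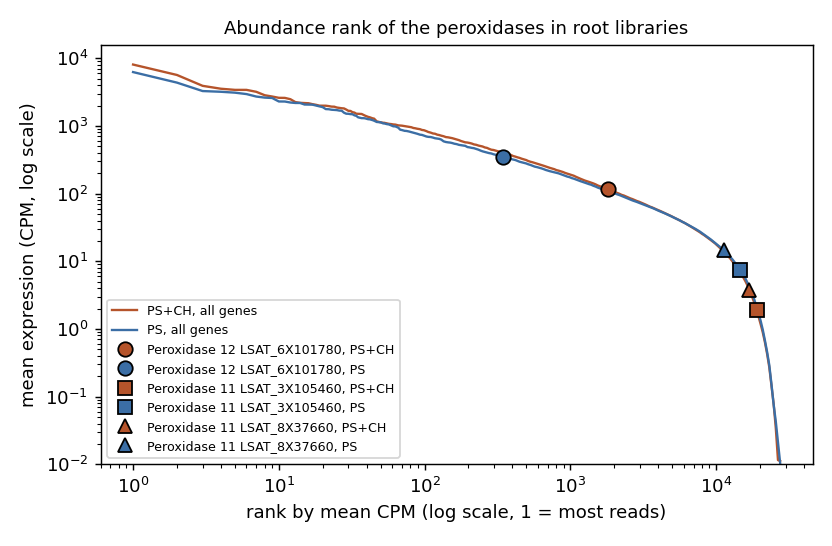
Mean CPM against abundance rank (both axes logarithmic) of all genes with at least 1 count, as a line for PS+CH and a line for PS, with the 3 peroxidases marked. The marks of each gene lie further right and lower in PS+CH, with Peroxidase 12 at rank 1803 in PS+CH and rank 344 in PS, while the lines for all genes nearly coincide.

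The size of the difference was then set beside genes of like abundance, as a description. For each peroxidase these were the 200 tested genes nearest in mean log2 CPM over all pools, 100 above and 100 below. Around Peroxidase 12, the log2-fold changes of the 200 genes had a median of 0.21 and a lowest value of -1.26, so that 0 of the 200 were as low as Peroxidase 12 at -1.59. Of these 200 genes, 1 (0.5%) was a lower expressed DEG, beside 2.93% of all genes tested. Around LSAT_3X105460, the median was -0.11 and the lowest value -1.70, against -1.97 for the gene itself. Lower expressed DEGs made up 8 (4%) of its 200 genes. Around LSAT_8X37660, the median was -0.10 and the lowest value -1.64, against -1.96 for the gene itself, with 4 (2%) such DEGs. Again 0 of the 200 genes were lower than the member in both cases. Over all genes tested, the median log2-fold change was 0.005.

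The genes just above and just below each peroxidase in mean CPM, an order set by other values than the mean log2 CPM of the 200 genes, are given as examples. LSAT_4X94441 and LSAT_4X99521, with 232 CPM each over all pools against 232 CPM for Peroxidase 12, had log2-fold changes of 0.23 (standard error 0.08) and -0.21 (standard error 0.12). Next to LSAT_8X37660, LSAT_2X126721 had -0.43 (standard error 0.13) and LSAT_4X75800 had 0.64 (standard error 0.23). Next to LSAT_3X105460, LSAT_2X51240 had 0.01 (standard error 0.20) and LSAT_6X88380 had -0.10 (standard error 0.18). The files do not pair these locus tags with names.

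Ordered by the level in PS alone, 343 tested genes had more reads than Peroxidase 12 (LSAT_6X101780), and 0 of them had a lower log2-fold change. The nearest was LSAT_1X111020 with -1.49, named after its value was seen. Of the 343 genes, 7 (2.04%) were lower expressed DEGs, beside 2.93% of all genes tested. Of the 11250 genes above LSAT_8X37660 in PS, 9 had a lower log2-fold change, and of the 14643 above LSAT_3X105460, 12 had one. Lower expressed DEGs made up 185 (1.64%) of the 11250 and 308 (2.10%) of the 14643.

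**Figure D3:**
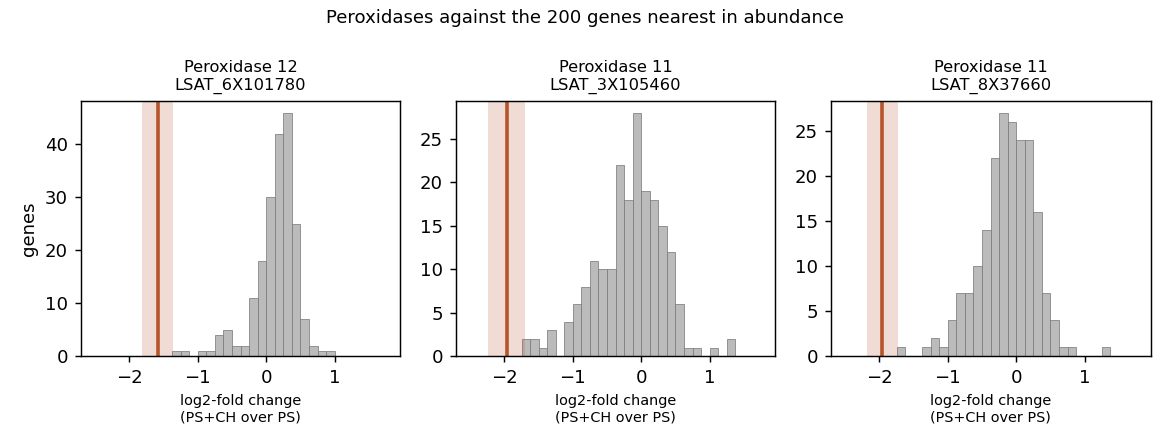
Log2-fold changes (PS+CH over PS, horizontal axis) of the 200 genes nearest in abundance to each peroxidase, as grey histograms of gene numbers, with the peroxidase as a line and its standard error as a band. Each line lies left of the whole histogram, at -1.59, -1.97 and -1.96, while the lowest neighbours were at -1.26, -1.70 and -1.64.

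Whether the 3 genes moved together between pools of the same treatment was asked next. The genes were chosen on the difference between treatments, to which the high PS replicate 3 and the low PS+CH replicate 2 also added. That choice can favour genes that share these pools, and the p-values of the correlations do not correct for it. In PS the pair of Peroxidase 11 genes ranked the 5 pools in the same order, with replicate 3 highest, then 4, 5, 2 and 1. Peroxidase 12 shared replicates 3 and 4 at the top, while replicate 2 was its lowest PS pool. In PS+CH all 3 genes were lowest in replicate 2. The highest PS+CH pool differed, being replicate 3 for Peroxidase 12, replicate 5 for LSAT_3X105460 and replicate 4 for LSAT_8X37660. The values 2.17, 2.08, 1.99 and 2.38 CPM of LSAT_3X105460 in the other chitin pools rested on 35 to 42 counts. Their order cannot be told from counting error, which was 17.3% of the mean level for this gene in PS+CH. For LSAT_8X37660, PS+CH replicates 3, 4 and 5 had 73, 84 and 80 counts. The order of these pools cannot be told from counting errors of 10.9% to 11.7% per pool either.

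Deviations of log2 CPM from the treatment mean were correlated over the 10 pools of both treatments together, and for a single treatment only the order of its 5 pools is given. The Peroxidase 11 genes had r = 0.89 with each other (exact permutation test within treatments, two-sided, p = 0.00299, adjusted p = 0.00896 over the 3 pairs). Spearman's rho was 0.81 (exact permutation p = 0.0103, adjusted p = 0.0103). Peroxidase 12 had r = 0.82 with LSAT_8X37660 (exact permutation p = 0.00799, adjusted p = 0.0120) and rho = 0.89 (exact permutation p = 0.00410, adjusted p = 0.0103). With LSAT_3X105460 it had r = 0.79 (exact permutation p = 0.0165, adjusted p = 0.0165) and rho = 0.83 (exact permutation p = 0.00778, adjusted p = 0.0103).

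The correlations were computed again without the extreme pools. The pools farthest from the median were PS replicate 3 and PS+CH replicate 2 for Peroxidase 12. Without this pair, r fell to 0.37 with LSAT_8X37660 (exact permutation p = 0.387) and to 0.19 with LSAT_3X105460 (exact permutation p = 0.797). For LSAT_3X105460 the farthest pools were PS+CH replicate 2 and PS replicate 1, and without them its r with LSAT_8X37660 was 0.68 (exact permutation p = 0.0972). Taking out the most extreme pools narrows the range of the values and can lower r by itself. With any 1 pool left out, r was at least 0.70 for each pair. For Peroxidase 12 with LSAT_3X105460 the exact permutation p was then 0.138 without PS+CH replicate 2 and 0.0885 without PS replicate 3.

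**Figure D4:**
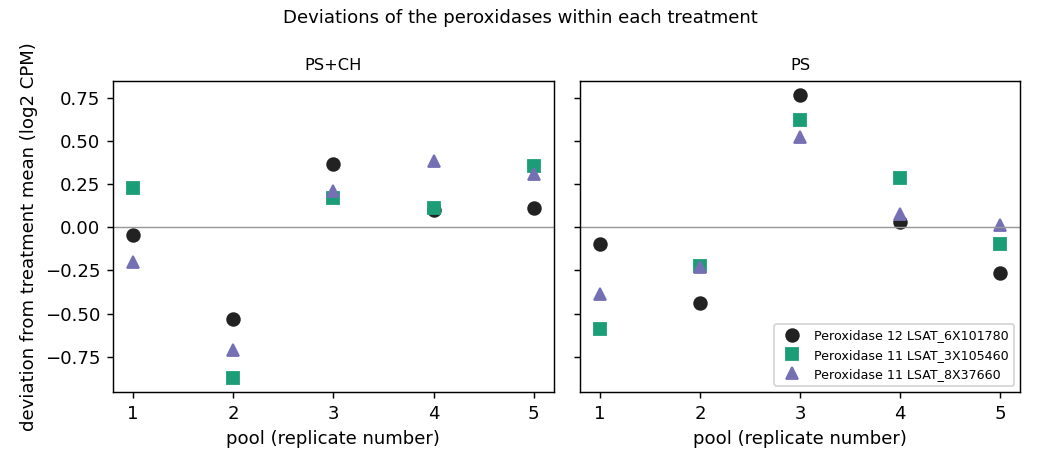
Deviation of each peroxidase from its treatment mean in log2 CPM (vertical axis) by pool, for PS+CH on the left and PS on the right. All 3 genes are highest together in PS replicate 3 and lowest together in PS+CH replicate 2, while their order in the remaining pools differs more.

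Among all 21935 other genes tested, the deviations of LSAT_8X37660 were the 51st most similar to those of LSAT_3X105460, and 99.8% of genes had a lower r. For Peroxidase 12, LSAT_8X37660 was at place 487 and LSAT_3X105460 at place 706, with 97.8% and 96.8% of genes lower. The genes whose deviations were most like those of the 3 peroxidases together were LSAT_8X71141, with a mean r of 0.93, then LSAT_2X86961, LSAT_3X90920, LSAT_5X87560 and LSAT_5X183141, with mean r from 0.91 to 0.90 over the 10 pools. LSAT_8X71141 had 4.38 CPM in PS+CH and 18.2 CPM in PS, and its log2-fold change was -2.06 (SE 0.25). LSAT_2X86961 had 9.07 CPM in PS+CH and 31.0 CPM in PS, and its log2-fold change was -1.77 (SE 0.26). LSAT_5X87560 differed from these, since its log2-fold change was 0.21 (SE 0.18).

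The 100 genes with the highest mean r, a number chosen after the data were seen, had a median log2-fold change of -0.87, and 34 of them were lower expressed DEGs beside 2.93% of all genes tested. In the fit without PS replicate 3, 22 of the 100 were lower expressed DEGs beside 1.49% of all genes. These are descriptions without a test: all 100 genes had PS replicate 3 as their highest PS pool and PS+CH replicate 2 as their lowest PS+CH pool, which held for 29.1% and 26.5% of all genes, and the part of these pools in the result was not tested.

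With all pools included, the peroxidases varied more between pools of a treatment than most genes of like abundance. Without PS+CH replicate 2 and PS replicate 3 this was weaker, and it no longer held for LSAT_3X105460 in PS+CH and LSAT_8X37660 in PS. The 200 genes were matched on the mean over all pools, while SDs were compared within a treatment. LSAT_3X105460 had 1.91 CPM in PS+CH and 7.49 CPM in PS, where its 200 genes had 3.65 to 3.89 CPM over all pools. LSAT_8X37660 had 3.76 and 14.6 CPM, against 7.19 to 7.52 CPM. Fewer reads carry more counting error, so that the SDs of the Peroxidase 11 genes were not compared at like abundance within a treatment. For Peroxidase 12 the SD of log2 CPM was 0.33 in PS+CH and 0.46 in PS (n = 5 each), where the 200 genes of like abundance had median SDs of 0.11 and 0.19. Of the 200 genes, 6 had a larger SD in PS+CH and 7 in PS. LSAT_3X105460 had SDs of 0.50 in PS+CH and 0.47 in PS, exceeded by 29 and 49 of its 200 genes. LSAT_8X37660 had SDs of 0.46 and 0.35, exceeded by 16 and 59 of its 200 genes. Without PS+CH replicate 2 in PS+CH and without PS replicate 3 in PS, choices made after the data were seen, the SDs of Peroxidase 12 were 0.17 and 0.20, exceeded by 42 and 39 of the 200 genes. Those of LSAT_3X105460 were 0.10 and 0.36, exceeded by 192 and 65. Its SD in the other PS+CH pools was 7.72% of their mean CPM, below the counting error of 15.4% to 16.9% per pool. No small spread of the gene is therefore read from these pools. With the same pools left out, the SDs of LSAT_8X37660 were 0.26 and 0.21, exceeded by 46 and 101.

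The balance between the genes was followed as ratios of reads within a pool. LSAT_8X37660 had 2.01 ± 0.374 reads per read of LSAT_3X105460 in PS+CH and 2.00 ± 0.237 in PS (SD, n = 5 each), a difference far within the spread between pools. Peroxidase 12 had 31.8 ± 5.01 reads per read of LSAT_8X37660 in PS+CH and 23.6 ± 4.24 in PS (SD, n = 5 each). The pools overlapped, with 25.5 to 36.2 in PS+CH and 19.2 to 28.5 in PS. Against LSAT_3X105460, Peroxidase 12 had 63.5 ± 13.6 reads per read in PS+CH and 47.4 ± 11.4 in PS (SD, n = 5 each), again with overlap. These ratios belong to the comparison on which the genes were chosen and were not tested.

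As other genes of the phenylpropanoid pathway, the 5 flavonoid branch genes that the study listed as differentially expressed were taken. Only 2 of the 5 had enough counts to be tested, of which 1 was a higher expressed DEG, beside 0.387% of all genes, and 0 were lower expressed DEGs. The gene for a chalcone isomerase-like protein 2 (LSAT_8X11480), a helper of the chalcone-forming step, rose to 3.71 ± 4.40 CPM in PS+CH, against 0.499 ± 0.360 CPM in PS (SD, n = 5 each). In the edgeR fit over all genes it had a log2-fold change of 2.88, a standard error of 0.90 and a Benjamini-Hochberg adjusted p of 0.0447. The flavonoid 3'-monooxygenase gene (LSAT_5X23101), whose product adds a hydroxyl group to the flavonoid B ring, had 18.3 ± 23.4 CPM in PS+CH and 3.28 ± 1.80 CPM in PS (SD, n = 5 each). Its pools overlapped too, with 1.36 to 57.6 CPM in PS+CH and 1.34 to 6.02 CPM in PS. The log2-fold change of LSAT_5X23101 was 2.48 (standard error 0.86), with an adjusted p of 0.0619 in the same edgeR fit. The 2 chalcone synthase genes and the dihydroflavonol 4-reductase gene were below the count filter. All 5 genes had their highest CPM in PS+CH replicate 2, the pool with the lowest peroxidase levels. The list consists of genes the study called on these samples, so that its direction and the adjusted p-values are no independent evidence.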

How the data were processed

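The authors sequenced strand-specific mRNA libraries of the root pools on a DNBSEQ platform, checked reads with FastQC 0.11.9, aligned them with STAR 2.7.10 to the reference of the cultivar Salinas, not the cultivar grown, and counted reads per gene with featureCounts 2.0.1. The values the authors deposited are raw counts per gene, without normalization. All 10 columns were used, with treatments and replicate numbers taken from the sample titles.

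Counts were analysed with edgeR 4.0.16 in R 4.3.3: filterByExpr (minimum count 10), TMM factors, the quasi-likelihood test and Benjamini-Hochberg adjustment over 21936 genes, with the thresholds of the study. Log2 CPM had a prior count of 2. Correlations of within-treatment deviations were tested exactly over 14400 arrangements. Both tests were tested on simulated data in which no pool stood apart, so that a pool like PS replicate 3 was not covered. The floor of 3 counts and the counting error quoted leave out the variation between pools, which the SDs and standard errors include. The members and lists were chosen with earlier results of these data known. The genes named are the 3 members, their neighbours in mean CPM, the 5 genes most like them within treatments, the genes of the flavonoid and marker lists, and 1 gene chosen after its value was seen. A gene table of Salinas v11 matched 0 of the 38293 locus tags, so that other peroxidases and lignin genes, and protein and promoter sequences, were not analysed here. LSAT_3X105460 was paired with its name through a listed fold change that no other listed gene shared. The photosynthesis genes were paired through a listed fold change and the chromosome together, since other listed genes shared the fold change of most of them, so that their names are less certain. Primer sequences came from the supplement. DESeq2 1.42.0 served as an alternative.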

Additional observations from a re-analysis of the deposited data

Results flagged for a closer look

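The Peroxidase 11 gene LSAT_3X105460 was far lower in PS+CH replicate 2, with 17 counts and 0.947 CPM, than in the other PS+CH pools, with 35 to 42 counts and 1.99 to 2.38 CPM. The gap to the nearest pool took a share of 0.729 of the whole range of the 5 PS+CH pools in CPM and 0.802 in log2 CPM, above Dixon's critical value of 0.71 for 5 samples. The check was made for the 3 genes in both treatments, 6 groups on each scale, and chance flags about 1 in 20 groups.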

How the results depend on the processing

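The log2-fold changes of the 3 peroxidases kept their sign in all 51 alternative values. These came from another test, scaling or filter, a replicate block, or a pool left out. Peroxidase 12 moved most without PS replicate 3, from -1.59 (standard error 0.23) to -1.35, a shift slightly above that standard error. Leaving out each pool gave -1.69 to -1.35 for Peroxidase 12, -2.10 to -1.80 for LSAT_3X105460 and -2.06 to -1.81 for LSAT_8X37660. The ranks stayed within the SD of the ranks in single pools in all 36 alternative values. At most 0.5% of genes of like abundance were lower than LSAT_3X105460, 1% than LSAT_8X37660 and 0% than Peroxidase 12.

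The number of DEGs was 728 and ran from 375 (without PS replicate 3) to 887 with each pool left out, with 461 without PS+CH replicate 1. It was 0 with the replicate block by code number over 8 libraries, where 5696 genes had an unadjusted p under 0.05 in edgeR; DESeq2, without a block, called 817. With that block the 3 peroxidases were thus not among the DEGs either, while their log2-fold changes were -1.58 for Peroxidase 12, -2.10 for LSAT_3X105460 and -2.15 for LSAT_8X37660. With the replicate block by title number it was 902. The numbers share no stated origin, and the deviations of same-numbered pools had correlations from -0.014 to 0.485. Of the PS+CH pools 3, and of the PS pools 2, correlated best with the pool of their own title number.

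The within-treatment correlations depended most on the pools. With the replicate block by title number, over 5 differences, r was 0.63 between Peroxidase 12 and LSAT_3X105460 (exact permutation p = 0.275), 0.75 between Peroxidase 12 and LSAT_8X37660 (exact permutation p = 0.133) and 0.745 between the Peroxidase 11 genes (exact permutation p = 0.183). Without PS replicate 3 and PS+CH replicate 2, a choice made after the data were seen, these were 0.19, 0.37 and 0.54, the last with an exact permutation p of 0.149. With 1 pool left out, r ran from 0.70 to 0.85, from 0.75 to 0.85 and from 0.78 to 0.96. Between Peroxidase 12 and LSAT_3X105460 it was 0.70 without PS+CH replicate 2 (exact permutation p = 0.138) and 0.71 without PS replicate 3 (exact permutation p = 0.0885). The cause was not tested. Depth limits the Peroxidase 11 genes, with 17 to 84 counts per PS+CH pool.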
